A study of Danio rerio with 18 samples.

Results

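The proneural genes described here are ascl1a, neurog1, neurod1 and olig2, which encode basic helix-loop-helix (bHLH) transcription factors of the developing nervous system. They were found by their gene symbol in the annotation of the array. Each of the 4 symbols had 1 probe set, so 4 of the 15502 probe sets that are not array controls were members, out of 8793 genes with 1 symbol. The Entrez gene numbers in that annotation were 30466 for ascl1a, 30239 for neurog1, 30169 for neurod1 and 325288 for olig2. A single probe set gives no second reading of a gene, so a transcript form that it does not cover cannot be seen.

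RNA of whole wild-type zebrafish embryos was measured on 18 Affymetrix arrays. Embryos of the 1-2 cell stage had received either a mock LNA or an anti-mir-34 LNA by injection, and were collected 1, 7 or 24 hours post fertilization (hpf). An LNA is a locked nucleic acid oligonucleotide, which binds a complementary small RNA tightly and blocks it. Each of the 6 combinations of injection and age had 3 arrays, called biological replicates in the labels. No uninjected embryos are among these samples, so all groups share the injection itself, and the controls carry the mock LNA. The embryos were freed of their chorion at 7 and 24 hpf only, and RNA was taken from the whole embryo, with no sort for neural cells. The labels used here do not say how many embryos a sample held or whether replicates came from separate clutches, and the p-values below measure only the spread between these samples.

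Proneural bHLH factors turn dividing cells of the neural plate into neurons. They bind DNA in pairs with widely expressed E-proteins, and Id proteins block them by taking up the E-proteins. A cell with much proneural factor makes Delta, which activates Notch in its neighbours, where Hairy-related repressors then hold proneural genes down. Neurog1 starts primary and sensory neurons in the zebrafish neural plate and cranial placodes, and ascl1a acts in neural progenitors of the brain and retina. Neurod1 acts later, in cells that are leaving division, and also in the endocrine pancreas. Olig2 belongs to the same protein family but marks a domain of the ventral spinal cord that yields motor neurons and then oligodendrocytes, under the control of hedgehog signals.

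All values are the deposited log2 signals. Array medians lay between 3.67 and 3.68, so every level is a standing among the probe sets of its array and says nothing of how much RNA an embryo held. No detection calls were used. The low levels of 1 and 7 hpf can therefore not be told from background, and folds that start from them are approximate. Differences taken after adding 16 to each signal on the linear scale, which damps the low end, are also given for the members and for some leading genes of the lists. Levels are compared between groups for 1 gene at a time, never between genes, because probe sets differ in brightness. Each array's correlation with the rest of its group, averaged, ranged from 0.89 to 0.94. Replicate 2 of the mock group at 24 hpf kept more signal of a list of 26 maternal and germ line genes, with a list median of 3.35 against 1.28 and 0.64 in replicates 1 and 3. At 7 hpf, replicate 3 of both injections had the lowest signal of the 3' against the 5' probe set of GAPDH, with log2 differences of -0.76 for mock and -1.40 for anti-mir-34, against -0.30 to 0.78 for the other 4 arrays. This measure, a sign of RNA or labelling quality, also moved with age: it was 0.99 to 1.77 on the 6 arrays of 24 hpf, above all 12 earlier arrays, and -0.37 to 0.19 at 1 hpf. Differences of the members with age, and some counts of the lists, are given with and without these arrays.

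The RNA of all 4 genes was lower at 1 and 7 hpf than at 24 hpf in both injection groups. Before 24 hpf neurog1 lay between the 33.1 and 57.4 percentile of the arrays and olig2 between the 21.3 and 57.3. Some of these early values were thus in the middle of the array. At 24 hpf neurod1 lay between the 58.6 and 70.1 percentile. Ascl1a had log2 signals of 2.19, 1.94 and 2.23 in the mock embryos at 7 hpf and of 7.24, 7.77 and 7.47 at 24 hpf. In the anti-mir-34 embryos ascl1a had 2.56, 1.53 and 1.97 at 7 hpf and 7.55, 7.22 and 7.62 at 24 hpf. The arrays of 24 hpf lay far above those of 7 hpf in both injection groups, with no overlap. The log2 difference was 5.37 ± 0.36 (SE) in mock embryos, a 41.4-fold rise with a 95% interval of 24.7 to 69.6 (limma, adjusted p = 7.34e-10, n = 3 and 3). In anti-mir-34 embryos it was 5.45 ± 0.36 (limma, adjusted p = 6.97e-10). Ascl1a moved from between the 28.3 and 32.3 percentile of the mock arrays at 7 hpf to between the 90.5 and 94.0 percentile at 24 hpf.

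Neurog1 had log2 signals of 2.79, 2.28 and 4.0 in mock embryos at 7 hpf and of 7.20, 7.54 and 7.29 at 24 hpf. Its anti-mir-34 values were 3.62, 3.40 and 4.36 at 7 hpf and 6.98, 6.18 and 7.32 at 24 hpf. Ages again did not overlap, and replicate 3 was the highest of the 7 hpf arrays in both injection groups. The rise was 4.32 ± 0.41 (SE) on the log2 scale in mock embryos, or 19.9-fold with a 95% interval of 11.1 to 36.0 (limma, adjusted p = 7.26e-08). In anti-mir-34 embryos the log2 rise was 3.03 ± 0.41, or 8.17-fold with an interval of 4.53 to 14.7 (limma, adjusted p = 7.54e-06).

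Neurod1 had low and scattered signals before 24 hpf, between the 0.723 and 23.1 percentile of the arrays. Its log2 signals at 7 hpf were -2.11, 1.19 and -2.88 in mock and 1.08, -1.07 and -2.88 in anti-mir-34 embryos. At 24 hpf they were 4.94, 4.47 and 5.04 in mock and 5.30, 4.97 and 5.39 in anti-mir-34 embryos. The 7 hpf values scattered widely, with an SD of 2.16 in the mock group against 0.31 at 24 hpf, and still none reached the arrays of 24 hpf. The log2 rise was 6.09 ± 1.06 (SE) in mock and 6.18 ± 1.06 in anti-mir-34 embryos (limma, adjusted p = 0.000106 and 0.000125). Its size is the least certain of the 4, since the 95% interval of the mock fold ran from 14.6 to 316 and the log2 rise fell to 1.40 with 16 added.

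Olig2 had log2 signals of 2.78, 2.92 and 4.36 in mock embryos at 7 hpf and of 5.42, 5.93 and 5.81 at 24 hpf. In anti-mir-34 embryos it had 2.39, 2.35 and 4.29 at 7 hpf and 5.63, 5.35 and 6.04 at 24 hpf. As for neurog1, replicate 3 stood above the other 7 hpf arrays in both groups without reaching the level of 24 hpf. The log2 rise was 2.37 ± 0.53 (SE) in mock embryos, or 5.16-fold with a 95% interval of 2.40 to 11.1 (limma, adjusted p = 0.00115). It was 2.67 ± 0.53 in anti-mir-34 embryos (limma, adjusted p = 0.000537).

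All 4 members thus passed the threshold of 0.05 on the adjusted p, in the higher direction, in both injection groups. Of all probe sets, 19.5% passed as higher and 23.5% as lower in mock embryos, and 16.5% and 19.4% in anti-mir-34 embryos. Arrays of 24 hpf that all lay above those of 7 hpf, as for all 4 members, were found for 25% of probe sets in mock and 23.8% in anti-mir-34 embryos. With 16 added to the signals, the mock differences shrank to 3.27, 2.85, 1.40 and 1.35 for ascl1a, neurog1, neurod1 and olig2, and all stayed past the threshold. Without replicate 2 of the mock group at 24 hpf the mock differences of ascl1a, neurog1, neurod1 and olig2 were 5.23, 4.22, 6.26 and 2.26. Without both replicate 3 arrays of 7 hpf they were 5.43, 4.81, 5.28 and 2.87 in mock embryos and 5.42, 3.31, 5.22 and 3.31 in anti-mir-34 embryos, and all passed. The highest adjusted p over the alternatives run was 0.0094, for olig2 without replicate 1 of the mock group at 7 hpf. These are whole embryos, so more cells that make a transcript and more of it per cell cannot be told apart. The GAPDH measure given above rose over the same interval, and its part in the result was not tested.

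**Figure D1:**
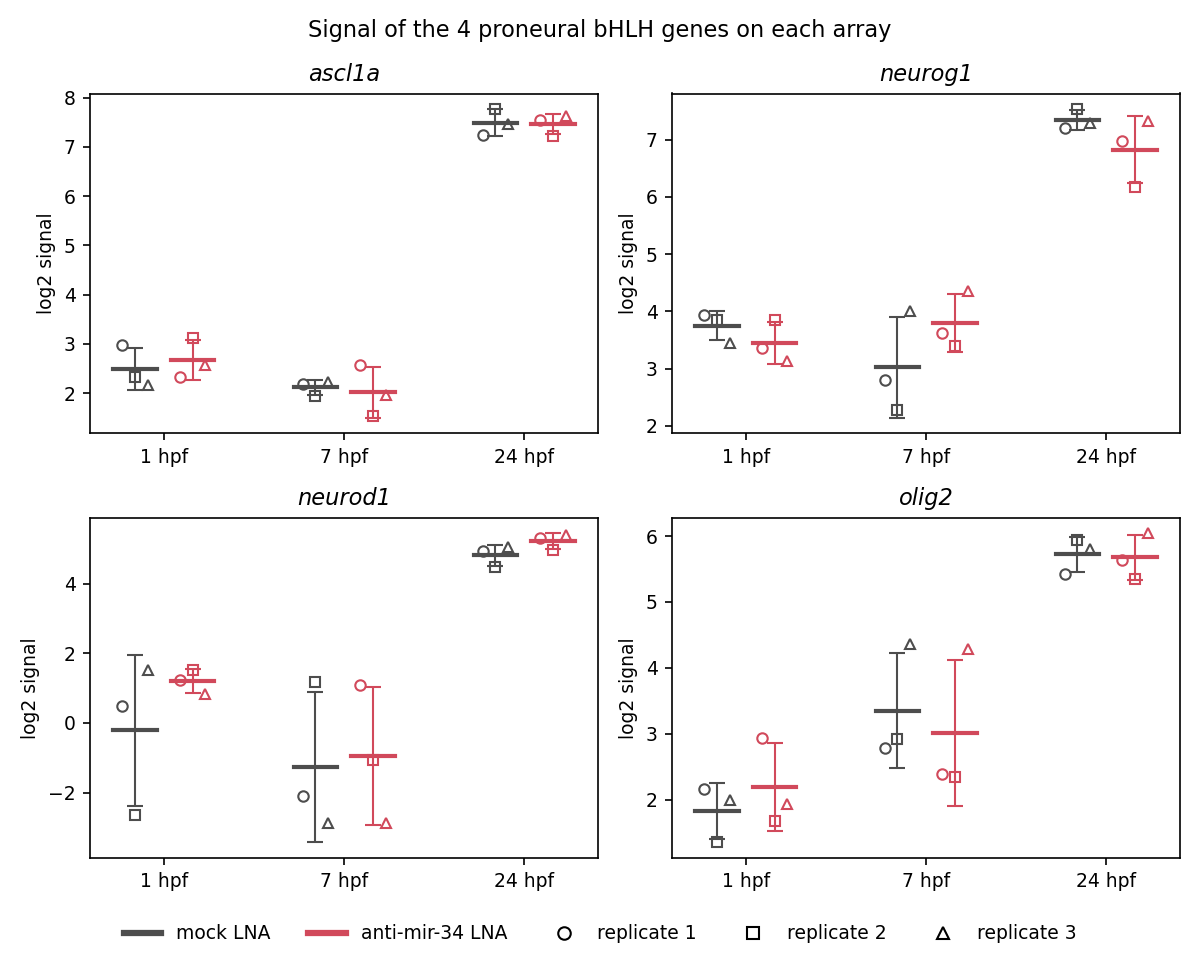
Log2 signal (vertical axes, scaled for each gene) of ascl1a, neurog1, neurod1 and olig2 on each of the 18 arrays, by age in hours post fertilization (hpf) and injection, with the mean (thick line) and SD (bars) of 3 arrays. All arrays of 24 hpf lie above those of 7 hpf for each gene, and the mock and anti-mir-34 symbols overlap at every age.

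Before the rise, from 1 to 7 hpf, olig2 was the 1 member called in mock embryos and none was called in anti-mir-34 embryos; whether this early step differs between the injections was not tested. It went from log2 signals of 2.16, 1.36 and 1.99 at 1 hpf to the 7 hpf values above, so that all arrays of 7 hpf were higher. The difference was 1.52 ± 0.53 (SE), or 2.86-fold with a 95% interval of 1.33 to 6.15 (limma, adjusted p = 0.0427). Of all probe sets 13.6% were called higher and 10.4% lower in that comparison, and 17.6% had all arrays of 7 hpf above those of 1 hpf. The call was lost in 8 of the 13 alternatives run, with adjusted p-values from 0.0277 to 0.243 over all of them. It was lost without each of the 3 mock arrays of 1 hpf in turn (adjusted p = 0.0578, 0.142 and 0.0709) and without replicate 3 at 7 hpf, when the difference was 1.01 (adjusted p = 0.243).

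Ascl1a had 2.98, 2.34 and 2.16 in mock embryos at 1 hpf and a difference to 7 hpf of -0.37 ± 0.36. Neurog1 had 3.94, 3.86 and 3.46 at 1 hpf and a difference of -0.72 ± 0.41 (limma, adjusted p = 0.216). Without replicate 3 of the mock group at 7 hpf, the array with its highest signal there, the neurog1 difference was -1.21 and passed the threshold (adjusted p = 0.0372). With 16 added to the signals the neurog1 difference was -0.25 and did not pass (limma, adjusted p = 0.465). Neurod1 had 0.47, -2.64 and 1.52 at 1 hpf and a difference of -1.05 ± 1.06. None of the 4 passed the threshold from 1 to 7 hpf in anti-mir-34 embryos, where 39.4% of all probe sets did in either direction and 7357 had an unadjusted p under 0.05. The differences were -0.66 ± 0.36 for ascl1a, 0.35 ± 0.41 for neurog1 and 0.82 ± 0.53 for olig2. The largest was that of neurod1, which had 1.25, 1.53 and 0.84 at 1 hpf and a difference of -2.16 ± 1.06 (limma, adjusted p = 0.114). Its difference was -3.18 without replicate 1 of the anti-mir-34 group at 7 hpf, which passed (adjusted p = 0.033). With 16 added to the signals it was -0.12 and did not pass (limma, adjusted p = 0.478).

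Ordered by group mean, both groups of 24 hpf came first for each gene, and their arrays overlapped. Ascl1a had means of 7.49 ± 0.27 (SD, n = 3) in mock and 7.46 ± 0.21 in anti-mir-34 embryos at 24 hpf, then 2.68 ± 0.40 and 2.49 ± 0.43 at 1 hpf in anti-mir-34 and mock embryos, and 2.12 ± 0.16 and 2.02 ± 0.52 at 7 hpf in mock and anti-mir-34 embryos. The 4 early groups of ascl1a overlapped their neighbours in this order. Neurog1 followed 7.34 ± 0.17 in mock and 6.83 ± 0.59 in anti-mir-34 embryos at 24 hpf with early means between 3.03 ± 0.88 in mock embryos at 7 hpf and 3.80 ± 0.50 in anti-mir-34 embryos at 7 hpf. Neurod1 had 5.22 ± 0.22 in anti-mir-34 and 4.82 ± 0.31 in mock embryos at 24 hpf, and early means from -1.27 ± 2.16 in mock embryos at 7 hpf to 1.21 ± 0.35 in anti-mir-34 embryos at 1 hpf. Olig2 alone had both 7 hpf means above both 1 hpf means. With mock first, its means at 24 hpf were 5.72 ± 0.27 and 5.67 ± 0.35. At 7 hpf they were 3.35 ± 0.87 and 3.01 ± 1.11, and at 1 hpf 1.84 ± 0.43 and 2.19 ± 0.67. The anti-mir-34 arrays of 7 hpf at 2.39 and 2.35 lay below the highest of 1 hpf, at 2.94. Without replicate 3 at 7 hpf the olig2 difference from 1 hpf was 1.01 in mock and 0.18 in anti-mir-34 embryos.

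The comparison of anti-mir-34 with mock embryos of the same age asks whether blocking mir-34 altered the RNA of these genes. None of the 4 members passed the threshold at any age, and mock and anti-mir-34 arrays overlapped for each gene at each age. Over all probe sets the adjusted test called 1.23% at 1 hpf and 0.0129% at both 7 and 24 hpf, where 1524, 1926 and 686 probe sets had an unadjusted p under 0.05. The arrays of the injection groups did not overlap in either direction for 12.7%, 15.5% and 9.18% of probe sets at 1, 7 and 24 hpf. The smallest unadjusted p among the members was 0.0733, for neurog1 at 7 hpf.

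At 24 hpf, when levels were highest, the log2 difference of anti-mir-34 from mock embryos was -0.03 for ascl1a (95% interval -0.77 to 0.72). It was -0.05 for olig2 (-1.15 to 1.06). For neurog1 it was -0.52 (-1.37 to 0.33), with replicate 2 of the anti-mir-34 group the lowest of the 6 arrays at 6.18. For neurod1 it was 0.40 (-1.81 to 2.62), and the lowest anti-mir-34 array at 4.97 lay below only the highest mock array at 5.04. In fold terms the interval ran from 0.584 to 1.65 for ascl1a and from 0.284 to 6.15 for neurod1. The fit uses 1 spread for a gene over all ages, so the neurod1 interval also carries its scatter at 1 and 7 hpf, while the SDs at 24 hpf were 0.31 and 0.22 for neurod1 and 0.27 and 0.21 for ascl1a in mock and anti-mir-34 embryos. With 16 added, the differences at 24 hpf were -0.02 ± 0.17 (SE) for ascl1a, -0.45 ± 0.23 for neurog1, 0.27 ± 0.12 for neurod1 and -0.03 ± 0.22 for olig2, and none passed.

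At 7 hpf the difference was 0.77 ± 0.41 (SE) for neurog1, with a 95% interval of -0.08 to 1.62 (limma, adjusted p = 0.449). The neurog1 difference ranged from 0.40 to 1.26 with 1 replicate left out, and was highest without replicate 3 of the mock group. Its lowest adjusted p over the 13 alternatives run was 0.0792 (limma). The 7 hpf difference was -0.10 for ascl1a (-0.85 to 0.65), 0.31 for neurod1 (-1.91 to 2.53) and -0.34 for olig2 (-1.45 to 0.76). With 16 added the 7 hpf differences were 0.28 for neurog1, -0.01 for ascl1a, 0.0026 for neurod1 and -0.10 for olig2, and none passed. At 1 hpf, when the RNA of the embryo is maternal, the differences were 0.18 for ascl1a (-0.56 to 0.93), -0.30 for neurog1 (-1.15 to 0.55), 1.42 for neurod1 (-0.80 to 3.64) and 0.35 for olig2 (-0.76 to 1.46). The anti-mir-34 arrays of 1 hpf had 2.33, 3.12 and 2.57 for ascl1a, 3.36, 3.85 and 3.14 for neurog1, and 2.94, 1.68 and 1.94 for olig2. The olig2 value of 2.94 lay above the highest mock array at 2.16. The neurod1 value at 1 hpf includes a mock array at -2.64, and it was 0.21 without that array and 0.07 with 16 added to the signals. A joint F-test of an injection effect at any of the 3 ages gave adjusted p-values of 0.985 for ascl1a, 0.612 for neurog1, 0.862 for neurod1 and 0.949 for olig2 (limma), where 0.284% of all probe sets passed.

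The size of the rise from 7 to 24 hpf can itself be compared between the injections. For neurog1 the rise in anti-mir-34 minus that in mock embryos was -1.29 ± 0.58 (SE) on the log2 scale, with a 95% interval of -2.49 to -0.08. It did not pass the threshold, with an unadjusted p of 0.0371 and an adjusted p of 0.546 (limma). Its sign was negative in all 19 alternatives run, which refit the same arrays and are no separate support. Its values there ran from -1.78 to -0.74, with adjusted p-values from 0.144 to 0.978 (limma). It combines the higher 7 hpf mean and the lower 24 hpf mean of the anti-mir-34 group. The difference of the rises was 0.07 ± 0.51 for ascl1a, 0.09 ± 1.5 for neurod1 and 0.30 ± 0.75 for olig2. Over all probe sets 0% passed this test, while 1333 had an unadjusted p under 0.05.

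**Figure D2:**
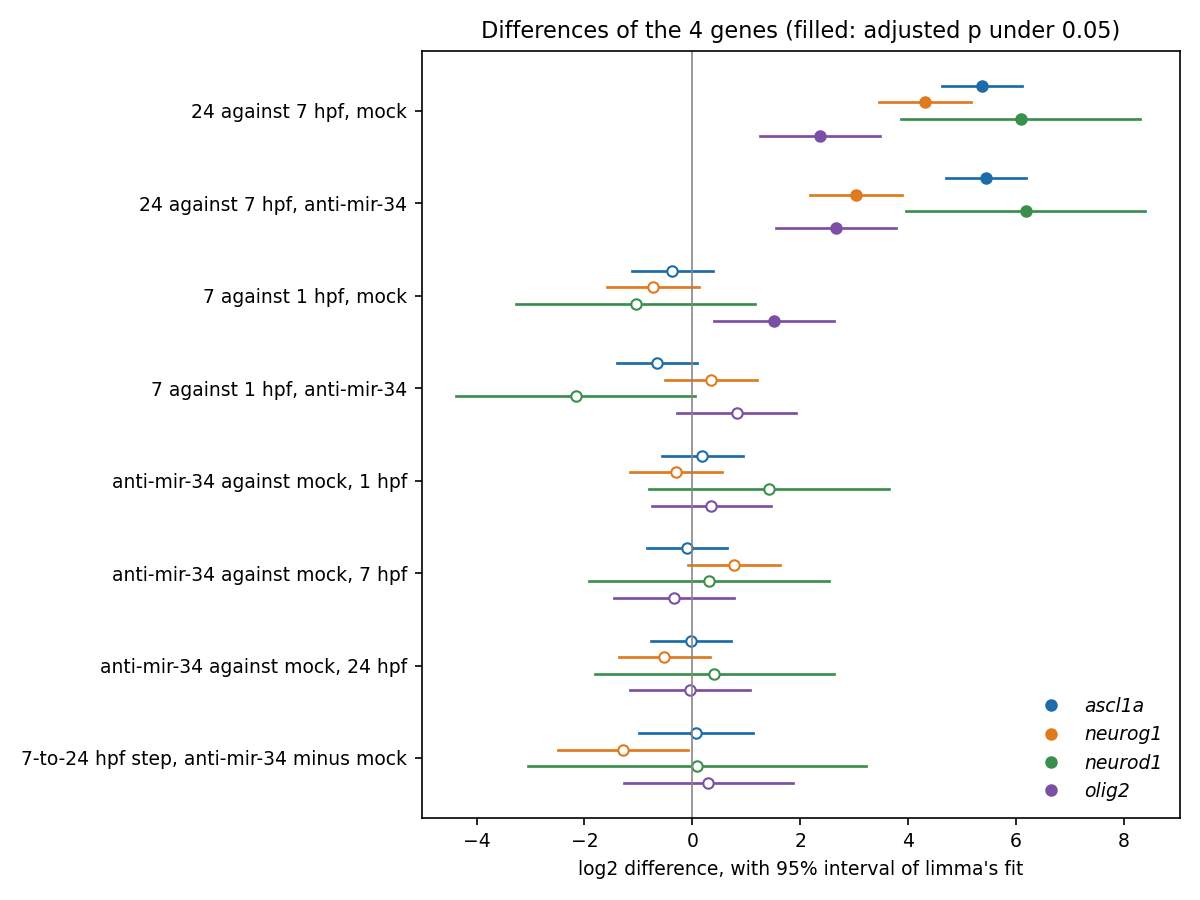
Log2 differences (horizontal axis) of the 4 genes with 95% intervals from limma's fit to 18 arrays, for the age comparisons, the injection comparisons and the difference of the 7-to-24 hpf rise between injections. Filled symbols have an adjusted p under 0.05, which holds for all 4 genes from 7 to 24 hpf in both injection groups and for olig2 from 1 to 7 hpf in mock embryos.

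Other bHLH genes of the neural and related lineages were measured for 12 of 21 listed names. From 7 to 24 hpf in mock embryos 6 rose and 2 fell, where 19.5% and 23.5% of all probe sets did, with a median log2 difference of 2.78, against -0.09 over all probe sets. Ascl1b, the paralog of ascl1a, rose by 5.38 ± 0.43 (SE, limma, adjusted p = 7.92e-09). Neurod4, a relative of neurod1 expressed in new neurons, rose by 4.44 ± 0.38 (adjusted p = 1.76e-08, limma). Atoh1a of the hindbrain rhombic lip rose by 4.41 ± 0.73, ptf1a of hindbrain and pancreas by 4.22 ± 0.73, and the olig2 relatives olig3 and bhlhe22 by 4.14 ± 0.80 and 5.15 ± 0.75. Msgn1, which is a factor of the presomitic mesoderm and not of neurons, fell by 5.93 ± 0.60 (limma, adjusted p = 1.83e-07). Neurod6a fell by 2.78 ± 0.51, and its mock mean had been 4.85 at 1 hpf and 4.03 at 7 hpf. A second, dimmer probe set of olig3 had a difference of -0.18 that did not pass. In anti-mir-34 embryos 7 of the 12 rose and 1 fell, with a median of 2.33, where 16.5% and 19.4% of all probe sets did.

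Of the partners and inhibitors, tcf12 encodes an E-protein and rose by 4.66 ± 0.65 (SE, limma, adjusted p = 8.37e-06) in mock embryos. It has 4 probe sets, of which 3 rose and 1, the dimmest, had a difference of 1.43 that did not pass (adjusted p = 0.213). The other measured E-protein gene, tcf3a, had a difference of -0.58 ± 0.44 (adjusted p = 0.318, limma). Among the 5 Id genes 1 was called higher, or 20%, which is near the 19.5% of all probe sets. It was id1, with a difference of 1.03 ± 0.36 (limma, adjusted p = 0.025). That call was lost without replicate 2 of the mock group at 7 hpf, where the difference was 0.56, without replicate 1 or 2 at 24 hpf, and when the fit had no intensity trend (adjusted p = 0.0591). In anti-mir-34 embryos 1 of 2 E-protein genes and 2 of 5 Id genes rose, and none of either list fell. There 16.5% of all probe sets rose and 19.4% fell.

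Most Delta and Notch genes rose over the same interval. Of 12 measured genes of this pathway 8 rose and none fell in mock embryos, with a median log2 difference of 2.19. Among all probe sets 19.5% rose and 23.5% fell. The ligand gene dlb rose by 5.72 ± 0.64 (SE, limma, adjusted p = 6.48e-07), and its second probe set rose by 4.44. The receptor gene notch2 rose by 2.34 ± 0.36 and the ligand gene jag1a by 3.10 ± 0.50. The brightest of the 3 notch2 probe sets gave that value, while the others had 0.92 and -0.76 and did not pass. Dla, a neural ligand gene, rose by 3.25 ± 0.53, notch3 by 2.41 ± 0.55 and notch1a by 1.15 ± 0.35. The notch1a call was lost without replicate 2 of the mock group at 7 hpf (limma, adjusted p = 0.08). A dimmer probe set of notch1a had a difference of 1.15 that did not pass (limma, adjusted p = 0.0812). In anti-mir-34 embryos the brighter and dimmer notch1a probe sets had -0.24 and 0.08, and neither passed. Dld, with mock mean log2 levels of 7.63 at 1 hpf and 7.54 at 7 hpf, had a difference of 0.46 ± 0.23 (limma, adjusted p = 0.123). In anti-mir-34 embryos 7 of 12 rose and none fell, with a median of 1.63, where 16.5% of all probe sets rose and 19.4% fell.

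Of 15 Hairy-related repressor genes measured, 9 rose and 3 fell in mock embryos, where 19.5% of all probe sets rose and 23.5% fell. The list's share of falls was thus no higher than that of all probe sets. Her15.2 rose by 4.22 ± 0.47 (SE, limma, adjusted p = 5.71e-07), her2 by 4.95 ± 0.57 and her4.5 by 7.23 ± 0.94; the her4 and her15 genes are Notch-responsive repressors of neural progenitors. A second probe set of her4.5 had a difference of 1.63 that did not pass (limma, adjusted p = 0.163). The her4 copies are nearly identical, and the probe set that gave the her4.5 value and the second one of her4.2 carry the mark of possible cross-hybridization, so the values of her4.5 and her4.2 (6.2 ± 0.92) may share signal. The brighter probe set of her3 rose by 4.99 ± 0.67, while the other had a difference of -1.65 (limma, adjusted p = 0.0789), so the direction of her3 is uncertain. Her7 and her1, which oscillate in the presomitic mesoderm, fell by 4.78 ± 0.69 and 3.56 ± 0.96. Her5 of the midbrain-hindbrain boundary also fell. In anti-mir-34 embryos 6 of 15 rose and 3 fell, where 16.5% and 19.4% of all probe sets did.

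Of 27 measured genes of neural plate factors, which mark progenitors, 15 rose and 5 fell in each injection group. The medians were 1.82 in mock and 1.16 in anti-mir-34 embryos. Of all probe sets, 19.5% rose and 23.5% fell in mock embryos, and 16.5% and 19.4% in anti-mir-34 embryos. The list's share of falls was no higher than that of all probe sets. The POU factor genes pou3f2b and pou3f3b rose by 7.28 ± 0.66 and 9.14 ± 0.93 (SE, limma, adjusted p = 4.1e-08 and 2.03e-07) in mock embryos. Otx1 of the anterior brain fell by 2.09 ± 0.26. Of the genes that fell, otx1, gmnn and sox19b had mock means of 7.94, 8.94 and 7.99 at 1 hpf, when the RNA is maternal. Irx7 and zic2b, which also fell, had -0.31 and 2.33 at that age. The part of maternal RNA in these falls was not tested. Sox2, a general marker of neural progenitors, rose by 1.72 ± 0.40, zic1 by 2.57 ± 0.32 and sox11a by 1.92 ± 0.37. Of the other 2 sox2 probe sets, 1 rose by 3.56 and 1 had a difference of 0.05.

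Genes that pattern the ventral cord, where olig2 acts, rose in 10 of 18 cases and fell in 1 in mock embryos. The median was 2.2, and in anti-mir-34 embryos 8 rose and 1 fell with a median of 1.48. Among all probe sets 19.5% rose and 23.5% fell in mock embryos, and 16.5% and 19.4% in anti-mir-34 embryos. Shha, which encodes the hedgehog ligand of the notochord and floor plate, rose by 2.39 ± 0.56 (SE, limma, adjusted p = 0.00178), and hhip, a hedgehog-binding protein gene, by 2.59 ± 0.38. Pax6a and pax6b, which border the olig2 domain, rose by 5.80 ± 0.85 and 2.82 ± 0.48, and nkx2.2a, on its ventral side, by 3.40 ± 0.64. Foxa2 of the floor plate and endoderm fell by 1.61 ± 0.50 (limma, adjusted p = 0.013). That call was lost without replicate 3 of the mock group at 7 hpf (adjusted p = 0.0648) or at 24 hpf (0.0743).

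Genes of post-mitotic neurons, the cells that neurog1 and neurod1 help to produce, rose in 25 of 34 cases in mock embryos and in 24 of 34 in anti-mir-34 embryos, and none fell. The medians were 3.37 and 3.45. For comparison, 19.5% of all probe sets rose and 23.5% fell in mock embryos, and 16.5% and 19.4% in anti-mir-34 embryos. Tmsb, a thymosin gene of neurons, rose by 7.85 ± 0.51 (SE, limma, adjusted p = 4.79e-10), rtn1a by 4.89 ± 0.38 and myt1a by 3.79 ± 0.31. Elavl3 and elavl4, which encode RNA-binding proteins of new neurons, rose by 3.99 ± 0.44 and 5.79 ± 0.59. The growth-cone gene gap43 rose by 4.61 ± 0.38 and the synaptic gene snap25a by 6.49 ± 0.60.

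Oligodendrocyte and glial genes rose in 8 of 14 cases and none fell in mock embryos, and 7 rose and 1 fell in anti-mir-34 embryos. The shares of all probe sets were 19.5% higher and 23.5% lower in mock embryos, and 16.5% and 19.4% in anti-mir-34 embryos. The genes slc1a2b and slc1a3a of glutamate transporters rose by 4.80 ± 0.35 and 5.10 ± 0.49 (SE, limma, adjusted p = 2.39e-09 and 9.69e-08), and fabp7a of radial glia by 6.44 ± 0.66. Gfap of radial glia rose by 6.79 ± 0.85, and sox10 of neural crest and oligodendrocyte cells by 4.94 ± 0.70. The myelin gene mbpa had a difference of -0.29 ± 0.93 (limma, adjusted p = 0.834), with mock means of 0.33 at 7 hpf and 0.04 at 24 hpf, both in the low range of the arrays. Slc1a2b, slc1a3a, fabp7a and gfap are known from radial glia and astroglia rather than from oligodendrocytes.

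Endocrine pancreas genes were listed because neurod1 also acts there. Of 9 measured, 5 rose and 2 fell in mock embryos, where 19.5% of all probe sets rose and 23.5% fell. In anti-mir-34 embryos 6 rose and 1 fell, where 16.5% and 19.4% of all probe sets did. The list's share of falls was no higher than that of all probe sets. With 16 added to the signals 5 rose and 1 fell in mock embryos. Insb, a preproinsulin gene, fell by 5.30 ± 0.75 (SE, limma, adjusted p = 1.08e-05), while pax6b and isl1a rose by 2.82 ± 0.48 and 5.12 ± 0.89. Pax6b, isl1a and nkx2.2a are also in the neural lists, so their rise is not specific to the pancreas. A second, dimmer probe set of isl1a had a difference of 0.39 that did not pass. With 16 added to the signals, the hormone genes sst1.1 and sst2 rose by 0.47 and 0.57 in mock embryos and passed. Ins, gcga and pdx1 then had differences of 0.28, -0.15 and -0.23 and did not pass.

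Counts of called genes in the lists above changed by at most 2 in both injection groups without both replicate 3 arrays of 7 hpf. The same held in mock embryos without replicate 2 of the mock group at 24 hpf. With 16 added to the signals, the counts of called genes in the lists above changed by at most 2 in mock embryos, and the medians became smaller. The median log2 difference was then 0.62 for the neural bHLH relatives, 1.29 for the Hairy-related repressors, 1.19 for Delta and Notch, 1.16 for the neural plate factors and also for neuron genes, 0.52 for ventral cord genes and 1.01 for glial genes.

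The genes given next kept their direction and their call in mock embryos with 16 added, at smaller sizes. Ascl1b then rose by 3.17, neurod4 by 2.26, atoh1a by 1.25 and tcf12 by 2.44. Dlb rose by 3.04, her15.2 by 2.75, her4.5 by 2.61, pou3f2b by 3.16 and pou3f3b by 2.87. Pax6a rose by 2.70, tmsb by 3.94 and fabp7a by 3.77, while msgn1 fell by 3.77, her7 by 1.08 and insb by 0.85.

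**Figure D3:**
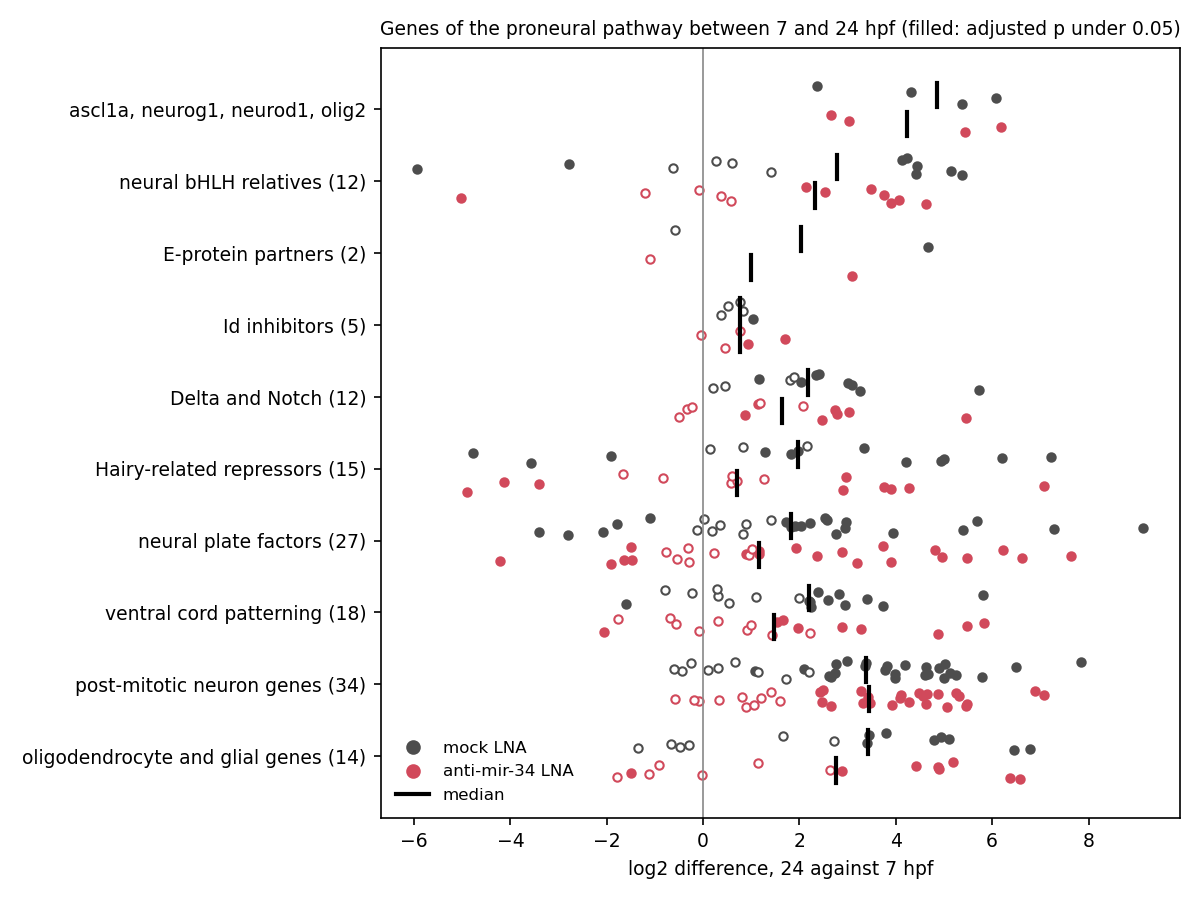
Log2 difference from 7 to 24 hpf (horizontal axis) of the 4 genes and of the measured genes of 9 lists by role, with the number of genes in parentheses, in mock (grey) and anti-mir-34 (red) embryos. Each symbol is 1 gene, filled where the adjusted p is under 0.05, and the black bar is the list's median, which is 3.37 and 3.45 for neuron genes and 0.77 in both groups for Id genes.

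From 1 to 7 hpf, where 13.6% of all probe sets were called higher and 10.4% lower in mock embryos, the same lists had the following counts. In mock embryos 3 of 5 Id genes rose and 1 fell, with id1 higher by 3.87 ± 0.36 (SE, limma, adjusted p = 1.13e-07), id3 higher by 1.58 ± 0.34 and id2a lower, at -1.08 ± 0.27. Of the Hairy-related genes 8 of 15 rose and none fell, led by hes6 with 3.90 ± 0.37, her9 with 4.96 ± 0.67 and her8a with 3.28 ± 0.48. Neural plate factors rose in 11 of 27 cases and fell in 3, with sox11a at 4.76 ± 0.37, zic2b at 4.80 ± 0.41 and sox19a at 6.21 ± 0.54. In the Delta and Notch list 2 rose, dla by 2.79 ± 0.53 and dlc by 2.19 ± 0.48, and jag2b had a difference of -1.03 ± 0.34, a call lost without any 1 of 5 of the 6 mock arrays of 1 and 7 hpf. Of the neural bHLH relatives only msgn1 was called, with a rise of 6.63 ± 0.60. From 1 to 7 hpf in anti-mir-34 embryos, 19.4% of all probe sets were called higher and 20% lower. There 3 of 12 bHLH relatives rose and 2 fell, and 6 of 12 Delta and Notch genes rose and 1 fell. Id genes rose in 3 of 5 cases and fell in 1. Hairy-related genes rose in 9 of 15 cases, and neural plate factors rose in 13 of 27 and fell in 6. Whether the early steps of the lists differ between the injections was not tested.

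Genes of the ventral cord list rose in 6 of 18 cases and fell in 1 over this interval in mock embryos. Foxa2, a gene of floor plate and endoderm, was higher by 5.19 ± 0.50 (SE, limma, adjusted p = 1.89e-07), dbx1a by 4.3 ± 0.57 and smo by 2.81 ± 0.57. RNA came from whole embryos, so a list's name does not say which cells held it. Neuron genes rose in 2 of 34 cases, with lhx5 at 3.16 ± 0.42, and fell in 6, with ncam1b at -2.98 ± 0.70 and snap25a at -1.93 ± 0.60. The snap25a call was lost with 16 added to the signals, where its difference was -0.27, and without replicate 3 of the mock group at 1 hpf or replicate 1 at 7 hpf. Without the replicate 3 arrays of 7 hpf of both injections, 5 Hairy-related genes and 3 ventral cord genes rose, and 1 neuron gene rose and 4 fell. With 16 added to the signals 2 neuron genes rose and 1 fell, and without replicate 2 of the mock group at 24 hpf, which enters through the shared spread, 2 rose and 3 fell. With 16 added 7 Hairy-related genes and 4 ventral cord genes rose, and 10 neural plate factors rose and 1 fell. Maternal genes fell in 11 of 26 cases over this interval in mock embryos, or in 5 without both replicate 3 arrays of 7 hpf. With 16 added 16 fell and 1 rose, and without replicate 2 of the mock group at 24 hpf 13 fell. From 7 to 24 hpf 25 of 26 fell in mock embryos, where 23.5% of all probe sets did. In anti-mir-34 embryos 7 ventral cord genes rose from 1 to 7 hpf and 17 maternal genes fell. Of the neuron genes 5 rose and 6 fell there.

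The medians of the neural plate list were higher on every array of 7 hpf than on any of 1 hpf, and those of the neuron list were lower, a description with no test. The neural plate medians lay between 2.19 and 2.76 at 1 hpf, 4.17 and 5.96 at 7 hpf, and 5.90 and 6.43 at 24 hpf. Those of the neuron list lay between 1.87 and 2.12, then 0.83 and 1.66, then 4.84 and 5.66. The neuron medians of 1 and 7 hpf were in the low range of the arrays. With 16 added to the signals, the median difference of neuron genes from 1 to 7 hpf in mock embryos was -0.14, against -0.87 as deposited. Replicate 2 of the mock group at 7 hpf was the lowest 7 hpf array for the neural plate, Delta and Notch, and neuron lists. The maternal medians at 7 hpf were 7.24, 7.18 and 5.87 in mock and 5.80, 6.4 and 5.52 in anti-mir-34 embryos. Their part in the age differences was not tested.

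**Figure D4:**
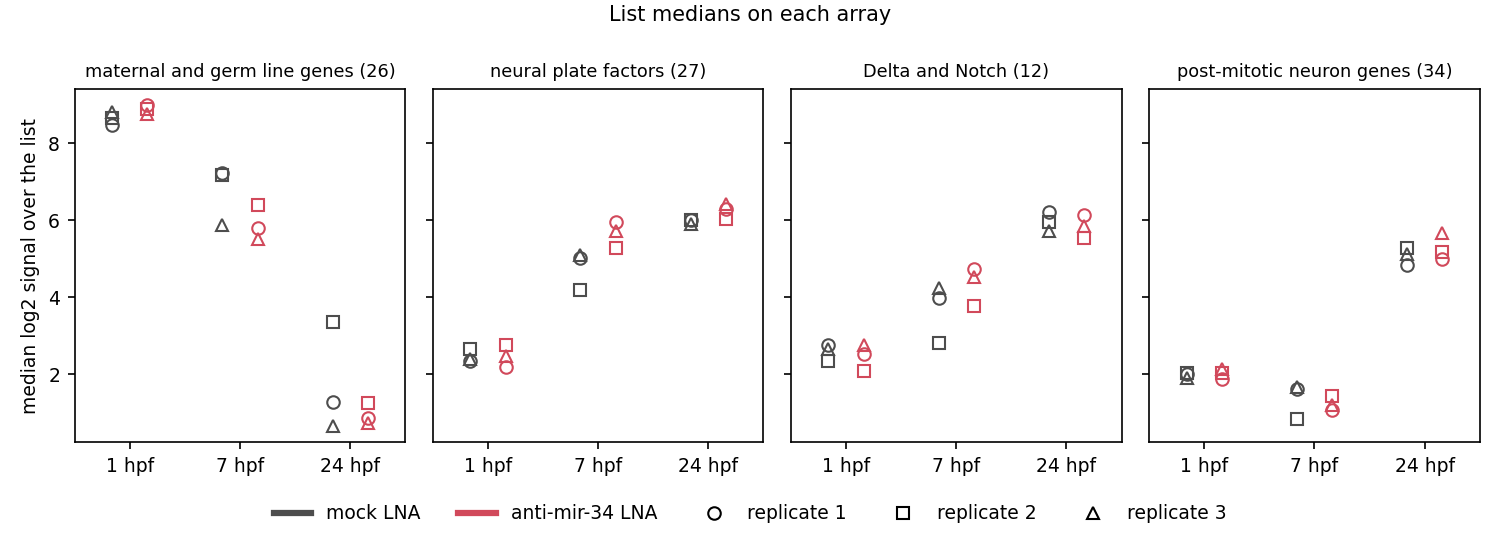
Median log2 signal (vertical axis) of 4 gene lists on each of the 18 arrays, by age in hours post fertilization (hpf) and injection, with the number of genes in parentheses and the replicate shown by the symbol. Neural plate medians are higher on every array of 7 hpf than on any of 1 hpf, and neuron medians are lower. Levels are not compared between lists. Replicate 2 of the mock group at 24 hpf has a maternal median of 3.35 against at most 1.28 on the other 5 arrays of that age.

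No gene of the 12 lists was called between the injections at 7 or 24 hpf. At 7 hpf the median differences of anti-mir-34 from mock embryos were 0.61 for the neural bHLH relatives, 0.78 for the Hairy-related repressors, 0.60 for Delta and Notch, 0.53 for the neural plate factors, 0.63 for ventral cord genes and 0.24 for neuron genes, against 0.03 over all probe sets. Of the other lists, E-protein genes had a median of 0.57, glial genes 0.40, muscle genes 0.39, Id genes 0.19 and endocrine pancreas genes -0.08. The maternal list had a median of -0.84 at that age. The embryos of the mock group at 7 hpf had higher maternal medians on replicates 1 and 2 than any anti-mir-34 array, as given above, and the part of this in the list differences was not tested. At 24 hpf the medians of the 6 lists given first lay between -0.14 and 0.41. Over all 12 lists they ran from -0.69 for maternal genes to 0.45 for endocrine pancreas genes.

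At 1 hpf 1 list gene was called between the injections. Ebf2, a neuron-lineage transcription factor gene, had a mean log2 level of -1.61 in anti-mir-34 and 2.13 in mock embryos, a difference of -3.74 ± 0.60 (SE, limma, adjusted p = 0.00363). With 16 added to the signals the difference was -0.35 and did not pass (adjusted p = 0.553), nor did it pass when only the 1 hpf groups were fitted (adjusted p = 0.292). Both levels are in the low range of the arrays. Ebf2 then rose by 4.99 ± 0.60 from 7 to 24 hpf in mock embryos.

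The genes whose signal followed each member most closely over the 18 arrays are given as a description. All share the lower early and higher late levels and the same arrays. For ascl1a the closest were zbtb16a, aldoab, mylpfa, atp2a1 and zgc:112964, with Pearson correlations of 0.99 for zbtb16a and 0.98 for zgc:112964. For neurog1 they were actn3b, ptprsa, tuba1b, ndufs4 and boc, from 0.98 down to 0.97. For neurod1 they were padi2, sdk2b, plekhh1, gstt1a and klhl41b, from 0.94 to 0.93. For olig2 they were psma1, ctdsp2, rpsa, slit2 and hoxb3a, from 0.97 to 0.95. Mylpfa, atp2a1, actn3b and klhl41b are genes of skeletal muscle, which also appears between 7 and 24 hpf. Among the members, the correlation over 18 arrays was highest between ascl1a and neurog1, at 0.96, and lowest between neurod1 and olig2, at 0.66.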

How the data were processed

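Gene expression was measured on 18 Affymetrix arrays in 6 groups of 3. The deposited values are log2 signals, 1 for each of 15617 probe sets per array. Their scale follows from the lowest value, -3.32, which is the base 2 logarithm of 0.1. The submitters' processing notes name GCOS, Affymetrix software. Their normalization and probe summary: not given in the sources used here. In all, 131 values were missing and stayed missing, and 115 control probe sets were left out. Arrays have no count depth, and 3 per group limit the precision.

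Gene names come from the platform annotation, with symbols checked against RefSeq by Entrez number. For a gene with several probe sets, the one with the highest mean stood for it. Limma 3.58.1 (R 4.3.3) fitted 1 mean per group to all 18 arrays (12 residual degrees of freedom), with eBayes and an intensity trend. Two-sided p-values were adjusted by Benjamini-Hochberg over 15502 probe sets, threshold 0.05. An exact permutation test of 3 against 3 cannot go below 0.1, so none is given. The scripts were tested on simulated data.

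The members, the 12 gene lists and the tests were chosen with earlier results of these data known. From each list the 3 genes with the smallest p among those called were named, with further genes named for their role. Likeness used the 5 highest Pearson correlations. Alternatives were 16 added to the signals, quantile normalization, only probe sets with a group mean of at least 4, no trend, a replicate block, only the groups compared, and each replicate left out in turn. Quantile normalization is a weak check here, because the deposited arrays were already nearly alike, with medians between 3.67 and 3.68. With it, the probe sets called between the injections at 1 hpf went from 191 to 192. Leaving out both replicate 3 arrays of 7 hpf, and counts of list genes under other settings, were added after seeing the data.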

Additional observations from a re-analysis of the deposited data

How the results depend on the processing

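The rises of all 4 members from 7 to 24 hpf stayed past the threshold in both injection groups under each of the 13 alternatives run. No injection difference of a member passed under any alternative. For olig2 from 1 to 7 hpf in mock embryos the difference was 0.46 with 16 added, 1.52 without a trend or with only the groups compared, and 1.01 to 1.80 with 1 replicate left out. With both replicate 3 arrays of 7 hpf left out it was 1.01. It passed only with the dim filter, quantile normalization, the replicate block, or replicate 1 or 2 of the mock group at 7 hpf left out. Quantile normalization hardly changed the fit and is no separate support. With it, 3724 probe sets were called from 1 to 7 hpf in mock embryos, against 3722 without it. Neurog1 over that interval ranged from -1.21 to -0.35 with 1 replicate left out. It was -1.21 without both replicate 3 arrays, which passed. Neurod1 in anti-mir-34 embryos ranged from -3.18 to -1.20. With 16 added these differences were -0.25 for neurog1 and -0.12 for neurod1, and neither passed.

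Small injection differences changed sign when 1 replicate was left out: at 1 hpf ascl1a -0.039 to 0.43 and olig2 -0.028 to 0.60; at 7 hpf ascl1a -0.37 to 0.15, neurod1 -0.71 to 1.54 and olig2 -0.98 to 0.16; at 24 hpf ascl1a -0.15 to 0.11 and olig2 -0.23 to 0.12. The difference of the rises did so too, with ascl1a -0.17 to 0.34, neurod1 -1.13 to 1.11 and olig2 -0.21 to 0.94. That of ascl1a was -0.013 with 16 added and -0.0065 without both replicate 3 arrays, and that of neurod1 was -0.061 without them. The cause was not tested. The mock difference of mbpa from 7 to 24 hpf was 0.014 with 16 added and ranged from -1.26 to 0.29 with 1 replicate left out.

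Numbers of probe sets called between the injections depended on the settings. At 1 hpf 191 became 58 without a trend, 0 with only the groups compared and 89 to 468 with 1 replicate left out. At 7 hpf 2 became 22 with 16 added, 0 without a trend or with only the groups compared, 53 without both replicate 3 arrays and 0 to 403 with 1 left out, the highest without replicate 3 of the mock group. At 24 hpf 2 became 0 without a trend or with only the groups compared and 0 to 13 with 1 left out. For the difference of the rises 0 became 1 without both replicate 3 arrays and 0 to 10 with 1 left out. With the replicate number as a replicate block, 18 were called at 7 hpf, 0 at 24 hpf and 217 at 1 hpf, and no call of a member changed. Deviations from group means of same-numbered mock and anti-mir-34 arrays correlated at 0.06 to 0.28 at 7 hpf, 0.03 to 0.14 at 1 hpf and 0.01 to 0.02 at 24 hpf, against -0.27 to 0.03, -0.16 to 0.06 and -0.02 to 0.01 for different numbers. At 7 hpf each array correlated best with its own number, a hint from the data. Since not every pair was over 0.1, the numbers were not taken to pair the samples.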

Other observations

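Skeletal muscle genes rose over the same interval as the neural genes. Of 21 measured, 18 rose and none fell from 7 to 24 hpf in mock embryos, with a median log2 difference of 8.47. In anti-mir-34 embryos 19 rose. The share of all probe sets that rose was 19.5% in mock and 16.5% in anti-mir-34 embryos, and 23.5% and 19.4% fell. The cardiac and skeletal actin gene actc1b rose by 8.47 ± 0.27 (SE, limma, adjusted p = 2.53e-14), the parvalbumin gene pvalb2 by 10.84 ± 0.43 and the calcium pump gene atp2a1 by 10.04 ± 0.44. Of the maternal list, pou5f3, ddx4 and zp2.6 fell by 6.38 ± 0.32, 6.12 ± 0.44 and 8.32 ± 0.66.

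At 24 hpf, replicate 2 was the lowest and replicate 3 the highest anti-mir-34 array for each of ascl1a, neurog1, neurod1 and olig2. In the mock group replicate 2 was the highest array for ascl1a, neurog1 and olig2 and the lowest for neurod1. Over deviations from the group means of the 18 arrays, neurog1 and olig2 had a Pearson correlation of 0.65, and neurog1 and neurod1 one of -0.52. These were the highest and lowest of the pairs. Ascl1a had 0.47 with neurog1, 0.13 with neurod1 and 0.02 with olig2, and neurod1 with olig2 had -0.34. The neurod1 deviations include its scattered early signals, which cannot be told from background. At 7 hpf both replicate 3 arrays, one of each injection, were the highest of their group for neurog1 and olig2 and the lowest for neurod1, at the same log2 signal of -2.88 for neurod1.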
